A study of Mus musculus with 10 samples.

Results

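The transcription factors that drive and restrain the osteoblast, the bone-forming cell, were read in cultured mouse mesenchymal stem cells and in a tumor line grown from them. Probes were taken by gene symbol for 9 genes, Runx1, Runx2, Sp7, Dlx3, Dlx5, Dlx6, Msx1, Msx2 and Atf4. These gave 13 of the 55644 probes used and 9 of the 22596 genes tested, since every member had a probe that both arrays of some group read well above background. The cells were of the FVB strain, and each of the 5 groups held 2 independent cultures with 1 single-colour array each. The tumor line came from a growth that arose where null BM-MSC had been injected under the skin of immunodeficient NSG mice. Part of its labels name the tumor itself, and it is 1 line in 2 cultures. All cells were at passages 2 to 5. Null BM-MSC and null ASC, from bone marrow and from fat, were Rb-/-p53-/- cells. By the culture protocol, RbloxP/loxPp53loxP/loxP cells spent 10 days in osteogenic medium and were then infected with an adenovirus carrying the Cre recombinase behind the CMV promoter (Ad-CMV-Cre), whereas their source labels name Rb-/-p53-/- mice. Both wild-type groups, again BM-MSC and ASC, were WT, and no osteogenic priming or virus is labelled for them. Null genotype, priming, virus and the line of array positions on the slide therefore cannot be told apart. The labels call the tumor line and null BM-MSC tumorigenic and the remaining groups non-tumorigenic. The series asked how far the stage of differentiation at which Rb and p53 are lost sets the kind of sarcoma that forms.

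RUNX2, a DNA-binding factor that works with the partner CBFB, commits mesenchymal cells to bone, and SP7 (osterix) acts after it and is required for osteoblasts to mature. DLX3, DLX5 and DLX6 are homeodomain proteins induced by bone morphogenetic proteins (BMPs) that activate Runx2 and bone matrix genes, while MSX1 and MSX2 are related homeodomain repressors that BMPs also induce. RUNX1 is the blood-forming relative of RUNX2 and is also present in skeletal progenitors. ATF4 is a translation-controlled factor of the amino acid response that works with RUNX2 at the osteocalcin gene.

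Promoter windows from RefSeq (build GRCm38.p6, 250 bases before to 50 after a gene's start) matched 5 of the 9 genes, with 6 windows. They were searched on both strands for the RUNX core ACCACA, the homeodomain core TAATTA and the amino acid response element TGATGNAA, which were present in 16.8%, 5.29% and 3.97% of all 32851 windows. The Runx2 window held 3 RUNX cores and one of the 2 Runx1 windows held 2, while the other Runx1 window held none. The Msx2 window held 1 homeodomain core, and the Msx1 and Atf4 windows held none of the 3 motifs. The longest run of letters common to the Runx1 window (chr16:92826025-92826324, minus strand) and the Runx2 window (chr17:44814578-44814877, minus strand) is shown because it carries the paired cores of both RUNX genes. It has 22 bases and lies 23 to 44 bases after the Runx1 start and 18 to 39 bases after the Runx2 start, with its 2 RUNX cores in capitals:
Runx1 and Runx2 shared run: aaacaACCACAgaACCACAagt
The whole run was present in 2 of the 32851 windows, these same ones, and 7 windows held a pair of RUNX cores 2 bases apart. The bases before the start of Runx2 and of Msx2 (chr13:53472731-53473030, minus strand) are shown because Runx2 was called higher and Msx2 lower in null than in wild-type BM-MSC, with the RUNX core of Runx2 and the homeodomain core of Msx2 in capitals:
Runx2 upstream: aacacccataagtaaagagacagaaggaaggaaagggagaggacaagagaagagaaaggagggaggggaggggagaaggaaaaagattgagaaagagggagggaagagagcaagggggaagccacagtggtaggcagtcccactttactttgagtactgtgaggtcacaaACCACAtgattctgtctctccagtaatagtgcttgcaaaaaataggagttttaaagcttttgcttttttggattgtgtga
Msx2 upstream: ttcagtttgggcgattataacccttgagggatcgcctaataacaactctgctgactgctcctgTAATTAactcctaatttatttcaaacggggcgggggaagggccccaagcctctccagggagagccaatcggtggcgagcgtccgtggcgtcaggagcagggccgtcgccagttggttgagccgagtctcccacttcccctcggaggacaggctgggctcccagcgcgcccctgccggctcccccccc
A match of letters describes these windows and shows no binding.

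Each level below is the log2 of a probe's signal over its own array's 75th percentile, which was 483 to 621 scanner units, and changes are log2 differences ± SE from limma over duplicate cultures. Levels of different probes are not set against each other, since probes differ in how strongly they bind. Between 53.3% and 58.4% of an array's spots stood well above background, and none was saturated. Duplicates correlated at r = 0.994 to 0.996 across genes, and the SD of their difference was 0.338 to 0.411. The targeted genes were lower in all 3 null groups. Rb1 averaged -1.97 in the tumor line, 0.60 in null BM-MSC and -1.94 in null ASC, against 1.91 and 1.31 in the wild-type BM-MSC and ASC cultures. Trp53 was well above background on no tumor line array and on 1 null ASC array. It read -0.89 and -1.11 in null BM-MSC and -4.49 and -5.12 in null ASC, against means of 0.77 and 1.06 in the wild-type BM-MSC and ASC cultures. Both stood higher in null BM-MSC than in null ASC, by 2.53 ± 0.05 for Rb1 (adjusted p = 1.99e-07) and 3.80 ± 0.20 for Trp53 (adjusted p = 9.05e-06). Against the wild-type cells of the same tissue, Rb1 changed by -1.31 in null BM-MSC and -3.25 in null ASC. Trp53 changed by -1.77 in null BM-MSC and -5.87 in null ASC. Each gene was read by the same probe in every group. Where the 2 probes lie relative to the flanked DNA is not determined here. All 10 mesenchymal stem cell markers were well above background in every group. The 8 other arrays shared a slide and the 2 tumor line arrays another, so slide and tumor line cannot be told apart.

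Runx2, the master factor of bone commitment, stood highest in null BM-MSC and lowest in ASC. Its level was -1.35 and -1.10 in the tumor line, -0.36 and -0.45 in null BM-MSC, and -1.21 and -1.07 in wild-type BM-MSC. In ASC it was -2.72 and -2.32 in null cultures and -2.21 and -2.45 in wild-type cultures. The tumor line overlapped wild-type BM-MSC, null ASC overlapped wild-type ASC, and all BM-MSC and tumor arrays lay above all ASC arrays. The probe used lies on chromosome 17 at 44633034 to 44633093, minus strand (mm9, as are all probe positions given). Where a probe falls in its transcript is not determined here.

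The 3 Runx2 probes ordered the groups alike down to ASC but gave different sizes. The probe at 44744925 to 44744984 averaged -1.65 in the tumor line, -0.58 in null BM-MSC and -1.11 in wild-type BM-MSC. In ASC it averaged -3.28 in null and -2.96 in wild-type cultures. The probe at 44951128 to 44951187, the farthest towards the gene's start, read -1.17 and -1.17 in the tumor line, -0.54 and -0.47 in null BM-MSC, and -1.03 and -0.78 in wild-type BM-MSC. In ASC it read -5.09 and -6.47 in null cultures and -6.20 and -6.62 in wild-type cultures, well above background on none of the 4 arrays. By this probe null BM-MSC stood at least 26.5-fold above null ASC, and wild-type BM-MSC at least 25.0-fold above wild-type ASC. By the probe used for the gene the same differences were 4.34-fold and 2.28-fold. The rise in null over wild-type BM-MSC passed on the probe used and on the middle one (0.53 ± 0.10, adjusted p over 33061 probes = 0.00893) but not on the last (0.40 ± 0.41, adjusted p over probes = 0.512). The middle probe alone set the tumor line below wild-type BM-MSC (-0.54 ± 0.10, adjusted p over probes = 0.0037). A bound of this kind sets the bright group's mean against, on each array of the dim group, the higher of the probe's own signal and the weakest signal counted as well above background.

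Runx1 was likewise higher in BM-MSC than in ASC, but its 2 probes differed on the tumor line. With the probe used (chromosome 16, 92605785 to 92605844, minus strand) the level was 1.99 and 1.96 in the tumor line, 1.34 and 1.29 in null BM-MSC, and 1.25 and 1.28 in wild-type BM-MSC. It was 0.50 and 0.57 in null ASC and 0.09 and -0.17 in wild-type ASC, and no neighbouring groups overlapped. The other probe (92604413 to 92604472) read 0.92 and 1.08 in the tumor line, 1.11 and 1.10 in null BM-MSC, and 1.09 and 1.10 in wild-type BM-MSC. It read -0.61 and -0.47 in null ASC and -0.59 and -0.43 in wild-type ASC. On this probe neither the tumor line against null BM-MSC (-0.10 ± 0.09, adjusted p over 33061 probes = 0.314) nor null against wild-type ASC (-0.02 ± 0.09, adjusted p over probes = 0.852) passed the threshold. The fall from bone marrow to fat passed on both probes.

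**Figure D1:**
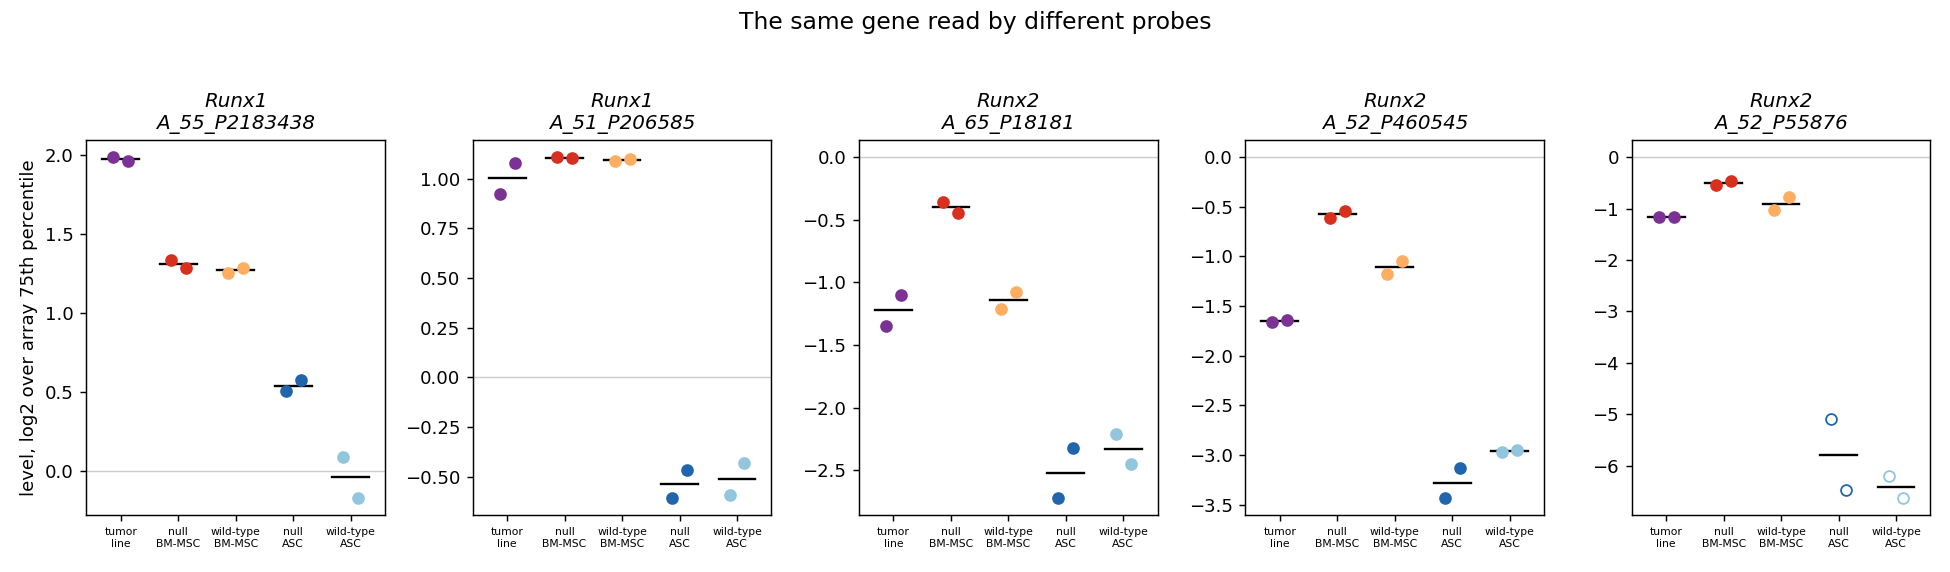
Levels (log2 over the array's 75th percentile, y axis) of 2 Runx1 and 3 Runx2 probes in the 5 groups (x axis). Each point is 1 array, lines are group means, and open circles mark groups where the probe was well above background on neither array. The tumor line stands above null BM-MSC on 1 Runx1 probe (1.97 against 1.31) and not on the other (1.00 against 1.11), and the right-hand Runx2 probe is open in both ASC groups.

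Sp7, required for the step from preosteoblast to osteoblast, had the widest range of the 9 genes after Dlx5, with group means 7.19 apart. Its level (chromosome 15, 102187692 to 102187751, minus strand) was -5.16 and -6.44 in the tumor line, 1.38 and 1.39 in null BM-MSC, and -0.33 and -0.16 in wild-type BM-MSC. In ASC it was -5.65 and -5.31 in null cultures and -4.64 and -4.63 in wild-type cultures. Neither tumor line nor null ASC arrays read the probe well above background, whereas both wild-type ASC arrays did. Null BM-MSC lay above wild-type BM-MSC with no overlap, and both lay far above the other groups. In bulk RNA, fewer cells that transcribe a gene and less of its RNA per cell cannot be told apart.

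Among the DLX activators, Dlx5 followed the tissue of origin most sharply. Its level (chromosome 6, 6828063 to 6828122, minus strand) was -4.84 and -4.31 in the tumor line, 0.71 and 0.73 in null BM-MSC, and 0.27 and 0.31 in wild-type BM-MSC. It was -6.99 and -7.03 in null ASC and -7.25 and -6.63 in wild-type ASC, where no array was well above background. The tumor line was detected on both arrays yet lay below every BM-MSC array.

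Dlx6, the chromosomal neighbour of Dlx5 (probe on chromosome 6, 6815092 to 6815151, plus strand), was -4.81 and -4.52 in the tumor line, -2.27 and -2.09 in null BM-MSC, and -2.25 and -2.20 in wild-type BM-MSC. It was -5.48 and -5.88 in wild-type ASC, not well above background, while the 2 null ASC arrays read -6.49 and -2.26. These null ASC duplicates disagreed by far more than any other pair (SD 2.99), and only the second was well above background. On that array the pixels of the Dlx6 spot were uneven, with an SD of 0.622 of their mean, against a median of 0.260 over 4314 spots of like brightness, of which 0.301% were as uneven. On the other 9 arrays the same ratio was 0.223 to 0.503. The part of this unevenness in the value was not tested. The disagreement enters the SE of every Dlx6 change, which was 1.20 for a comparison of 2 groups.

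Dlx3 moved least among the DLX genes, with group means only 0.64 apart. Its level (chromosome 11, 94986262 to 94986357, plus strand) was 0.41 and 0.24 in the tumor line, 0.82 and 0.81 in null BM-MSC, and 0.81 and 0.72 in wild-type BM-MSC. It was 0.16 and 0.19 in null ASC and 0.63 and 0.56 in wild-type ASC. Null and wild-type BM-MSC overlapped, and null ASC stood lowest.

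The MSX repressors took different paths. Msx1 (chromosome 5, 38212305 to 38212364, minus strand) was -0.24 and -0.14 in the tumor line, 2.14 and 2.19 in null BM-MSC, and 1.52 and 1.57 in wild-type BM-MSC. In ASC it was 0.41 and 0.45 in null cultures and 0.47 and 0.62 in wild-type cultures. It thus stood highest in null BM-MSC and lowest in the tumor line, with no overlap between neighbours. Msx2 (chromosome 13, 53562318 to 53562377, minus strand) was -0.54 and -0.58 in the tumor line, -3.31 and -3.11 in null BM-MSC, and -0.17 and -0.33 in wild-type BM-MSC. It was 0.31 and 0.44 in null ASC and 0.67 and 0.64 in wild-type ASC. Msx2 was the only member lowest in null BM-MSC, the group in which Runx2, Sp7, Dlx3, Dlx5, Dlx6 and Msx1 had their highest mean.

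Atf4, the amino acid response factor, had its group means within 0.70 of each other. The probe used (chromosome 15, 80087902 to 80087961, plus strand) read 7.82 and 7.79 in the tumor line, 7.59 and 7.60 in null BM-MSC, and 7.13 and 7.08 in wild-type BM-MSC. It read 7.55 and 7.57 in null ASC and 7.24 and 7.33 in wild-type ASC. No neighbouring groups overlapped, and each null group lay above the wild-type group of its tissue. The second probe (80086639 to 80086698) kept that order, at 3.32 and 3.28 in the tumor line, 3.11 and 3.08 in null BM-MSC and 2.39 and 2.29 in wild-type BM-MSC. In ASC it averaged 3.03 in null and 2.76 in wild-type cultures.

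**Figure D2:**
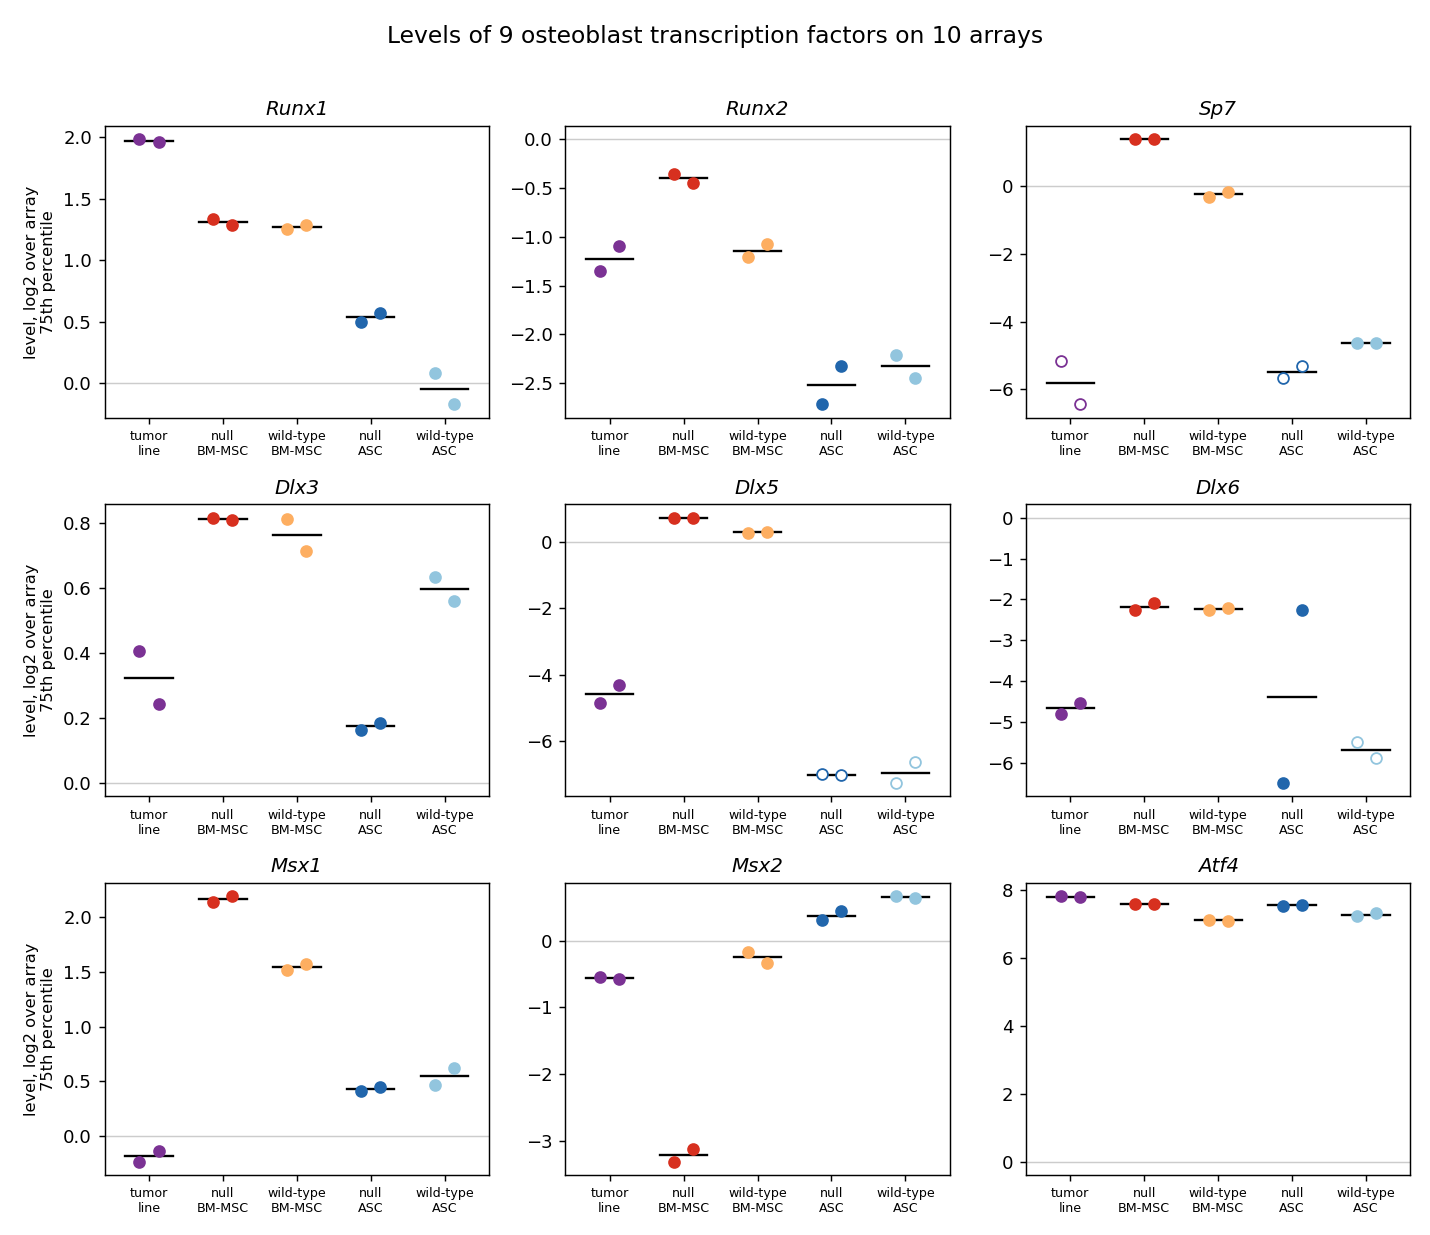
Levels (log2 over the array's 75th percentile, y axis, with its own range per panel) of the 9 genes in the tumor line, null and wild-type BM-MSC, and null and wild-type ASC (x axis). Points are arrays, lines are means of 2, and open circles mark groups well above background on neither array. Sp7 and Dlx5 are high in both BM-MSC groups alone, Msx2 is lowest in null BM-MSC (-3.21), and the 2 null ASC arrays of Dlx6 lie apart.

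Null BM-MSC against wild-type BM-MSC asks how the bone marrow cells that formed sarcoma differ from unmodified ones. Runx2, Sp7, Msx1 and Atf4 were higher and Msx2 was lower in null BM-MSC, and 4 members did not pass. Among all genes tested, 19.3% were called higher and 20.2% lower. Sp7 stood 3.09-fold higher (log2 1.63 ± 0.38, adjusted p = 0.0153), Runx2 1.67-fold (0.74 ± 0.16, adjusted p = 0.0114), Msx1 1.53-fold (0.62 ± 0.07, adjusted p = 0.000689) while Atf4 was higher by 0.49 ± 0.05 (adjusted p = 0.000461). Msx2 was 7.79-fold lower (log2 -2.96 ± 0.09, adjusted p = 6.93e-06). Dlx5 differed by 0.43 ± 0.23 (adjusted p = 0.206) with arrays that did not overlap, and Runx1, Dlx3 and Dlx6 by 0.04 to 0.05. The SE of Dlx5 draws on its dimmer wild-type ASC (SD 0.442) and tumor line (SD 0.376) arrays. Dlx5 passed with only the compared groups (adjusted p = 0.0138) and with normexp (adjusted p = 0.0117). The median member change was 0.43, against 0.01 over all genes. The SE of Sp7 draws on its dim tumor line arrays (SD 0.908), which are outside this comparison. Over 19 alternatives the Sp7 change was 1.49 to 1.71. The calls of Runx2 and Sp7 were lost when single arrays were left out. Without the first wild-type BM-MSC array the adjusted p was 0.0673 for Runx2 and 0.0777 for Sp7, and without the first null BM-MSC array it was 0.063 and 0.0668. The second wild-type or null BM-MSC array took the Sp7 call alone (adjusted p = 0.055 and 0.0645). The summed level of epithelial markers moved with this comparison, at 0.814 to 0.948 in null BM-MSC against 0.216 to 0.219 in wild-type BM-MSC. Cdh1 was -2.45 in null BM-MSC against a signal not well above background in wild-type BM-MSC, and Krt14 was -0.66 against -2.89. Krt5 did not rise, at -4.35 in null against -4.22 in wild-type BM-MSC. Of the 5 markers, 3 were well above background on both arrays in null BM-MSC and 2 in wild-type BM-MSC, Epcam and Krt15 in neither, and their part in the members' differences was not tested.

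Null ASC against wild-type ASC is the same contrast in cells that formed no tumor. Runx1 and Atf4 were higher and Dlx3 and Msx2 lower in null ASC, while the shares over all genes were 20.3% higher and 21.2% lower. Runx1 was 1.49-fold higher by the probe used (0.58 ± 0.09, adjusted p = 0.00209), a difference its other probe did not show. Atf4 was 1.21-fold higher (0.28 ± 0.05, adjusted p = 0.00428). Dlx3 was 1.34-fold lower (-0.42 ± 0.07, adjusted p = 0.00309) and Msx2 1.21-fold lower (-0.28 ± 0.09, adjusted p = 0.0448). The Msx2 call was lost in 11 of 20 alternatives. Leaving out any of the 4 ASC arrays gave an adjusted p of 0.0568 to 0.2, the first wild-type BM-MSC array 0.0505 and either tumor line array 0.0698 and 0.0706. Runx2 (-0.19 ± 0.16), Msx1 (-0.12 ± 0.07) and Dlx5 (-0.07 ± 0.23), the last below background in both groups, did not pass. Sp7 was at least 1.51-fold lower in null ASC without passing (-0.85 ± 0.38, adjusted p = 0.124). Its SE draws on the 2 dim tumor line arrays, and without either of them the adjusted p was 0.00433 and 0.00442.

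The difference between these 2 null effects, BM-MSC minus ASC, was tested for every gene, and 15.3% were called higher and 16.6% lower. It was 1.93 ± 0.07 for Rb1 and 4.10 ± 0.28 for Trp53, whose RNA was lowered less in BM-MSC. In this difference the degree of loss and the tissue of origin therefore cannot be told apart. Of the members, Sp7, Runx2, Msx1 and Dlx3 were higher and Msx2 and Runx1 lower by this test. The difference was 2.47 ± 0.53 for Sp7 (adjusted p = 0.0147), 0.93 ± 0.23 for Runx2 (adjusted p = 0.0221), 0.73 ± 0.10 for Msx1 (adjusted p = 0.00202) and 0.47 ± 0.10 for Dlx3 (adjusted p = 0.012). It was -2.68 ± 0.13 for Msx2 (adjusted p = 5.14e-05) and -0.54 ± 0.12 for Runx1 (adjusted p = 0.017). Msx2 and Msx1 thus differed in opposite directions. Averaging the probes of a gene gave 0.52 for Runx2 (adjusted p = 0.0514) and -0.25 for Runx1 (adjusted p = 0.0595), so both calls depend on the probe. The Runx2 call was also lost without the first wild-type ASC, the first wild-type BM-MSC or either null BM-MSC array (adjusted p = 0.0534 to 0.0761). The Runx1 call was lost without the second wild-type BM-MSC, null ASC or null BM-MSC array (0.0545 to 0.0572), and the Sp7 call without the first wild-type BM-MSC or null ASC array (0.0529 and 0.0513). Atf4 (0.21 ± 0.07, adjusted p = 0.0616), Dlx5 and Dlx6 did not pass. The Atf4 result also depends on the probe. By its second probe the difference was 0.49 ± 0.08 (adjusted p over 33061 probes = 0.00634), and averaging its probes gave 0.35 (adjusted p = 0.0142). Atf4 stayed uncalled in 15 of 20 alternatives.

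**Figure D3:**
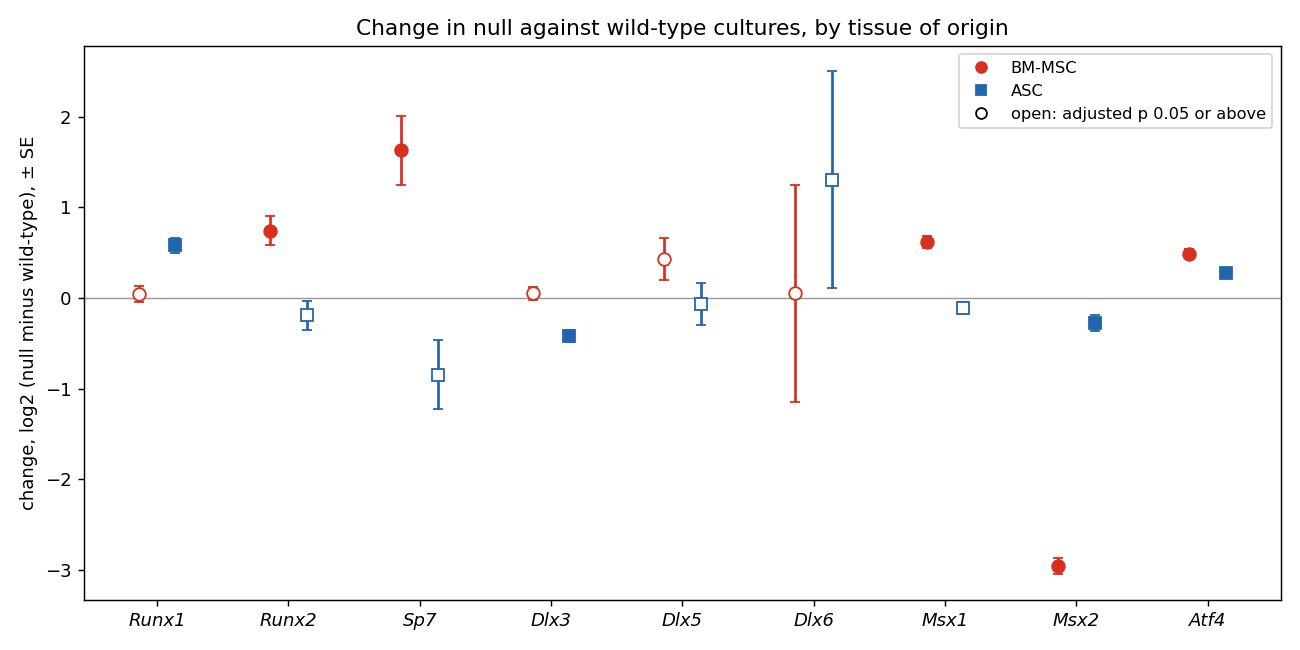
Change in null against wild-type cultures (log2, y axis, bars are ± SE from limma) of the 9 genes (x axis), as circles for BM-MSC and squares for ASC. Filled symbols passed an adjusted p of 0.05. Msx2 (-2.96 in BM-MSC, -0.28 in ASC) and Sp7 (1.63 and -0.85) lie farthest apart between the tissues, and Dlx6 (SE 1.20) and Sp7 (SE 0.378) have the widest bars.

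Null BM-MSC against null ASC set the primed null cells of both tissues side by side. Higher in null BM-MSC were 6 members, Runx1, Runx2, Sp7, Dlx3, Dlx5 and Msx1, against 26.0% of all genes, and Msx2 was lower, against 29.4%. Sp7 was at least 97.7-fold higher (adjusted p = 1.23e-05) and Dlx5 at least 62.6-fold (adjusted p = 9.37e-07). Runx2 was 4.34-fold higher (2.12 ± 0.16, adjusted p = 5.26e-05), Msx1 3.33-fold (1.73 ± 0.07, adjusted p = 2.60e-06), Runx1 1.71-fold (0.77 ± 0.09, adjusted p = 0.000323) and Dlx3 1.56-fold (0.64 ± 0.07, adjusted p = 0.000272). Msx2 was 12.0-fold lower (-3.58 ± 0.09, adjusted p = 4.18e-07). Dlx6 differed by 2.20 ± 1.20 without passing (adjusted p = 0.168), and Atf4 by 0.04 ± 0.05. The Dlx6 difference was 4.32 with the second null ASC array left out, where the remaining null ASC array was not well above background. With the first null ASC array left out it was 0.08. The median member change was 1.73, against -0.02 over all genes.

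Wild-type BM-MSC against wild-type ASC gave the tissue difference in cells with both genes intact. Runx1, Runx2, Sp7, Dlx5, Dlx6 and Msx1 were higher in BM-MSC, against 25.7% of all genes, and Msx2 and Atf4 were lower, against 28.3%. Dlx5 was at least 57.3-fold higher (adjusted p = 1.33e-06) and Sp7 21.0-fold (4.39 ± 0.38, adjusted p = 0.000107). Runx1 was 2.48-fold higher (1.31 ± 0.09, adjusted p = 2.82e-05), Runx2 2.28-fold (1.19 ± 0.16, adjusted p = 0.000878) and Msx1 2.00-fold (1.00 ± 0.07, adjusted p = 3.34e-05). Dlx6 was at least 9.28-fold higher, but its call (adjusted p = 0.0488) was lost in 11 of 19 alternatives, among them leaving out any wild-type BM-MSC, wild-type ASC, null BM-MSC or tumor line array (adjusted p = 0.0758 to 0.158). The SE of Dlx6 draws on the disagreeing null ASC arrays (SD 2.99), which are outside this comparison. Without either of them the Dlx6 call was kept. Msx2 was 1.87-fold lower (-0.90 ± 0.09, adjusted p = 0.000196). Atf4 was 1.13-fold lower (-0.17 ± 0.05, adjusted p = 0.022) and lost the call in 8 of 20 alternatives, including without either wild-type BM-MSC array or the second wild-type ASC array (0.052 to 0.105). Dlx3 differed by 0.17 ± 0.07 (adjusted p = 0.0816).

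Fat and cartilage markers also differed between the tissues. The summed level of 8 fat cell markers, in units of the array's 75th percentile, was 16.1 to 16.3 in null BM-MSC against 231 to 253 in null ASC, and 20.2 to 21.0 in wild-type BM-MSC against 261 to 274 in wild-type ASC. Lpl, a lipase that fat cells secrete, carried the sum, at 3.16 in null BM-MSC against 7.91 in null ASC and 2.76 in wild-type BM-MSC against 8.05 in wild-type ASC. The fat regulators ran the other way. Pparg was 2.48 in null BM-MSC against -1.30 in null ASC, and 2.77 in wild-type BM-MSC against -1.55 in wild-type ASC. Cebpa was 0.51 in null BM-MSC against -2.92 in null ASC, and 1.57 in wild-type BM-MSC against a signal not well above background in wild-type ASC. Fabp4, a lipid carrier, was -2.17 in null BM-MSC against 0.50 in null ASC, and 1.96 in wild-type BM-MSC against -0.17 in wild-type ASC. Of the 8 markers, 4 were well above background on both arrays in null BM-MSC and 4 in null ASC, and 6 in wild-type BM-MSC and 3 in wild-type ASC, with Adipoq and Cd36 on both arrays of no group. The summed level of 8 cartilage markers was 108 to 114 in null BM-MSC against 55.5 to 58.4 in null ASC, and 131 to 137 in wild-type BM-MSC against 51.7 to 56.6 in wild-type ASC. Sox5 made up most of the sum in ASC, at 5.80 in null and 5.75 in wild-type ASC, against 6.14 and 5.93 in BM-MSC. Col2a1, the cartilage collagen, was 5.00 in null BM-MSC and 6.09 in wild-type BM-MSC, and no ASC array read it well above background. Acan and Col9a1, both dim, went the other way, each at -4.96 in null BM-MSC against -4.42 and -4.38 in null ASC. The part of such cells in the members' differences was not tested.

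The tumor line against null BM-MSC compares the line with the kind of culture it grew from. Rb1 RNA was 5.94-fold lower and Trp53 RNA at least 23.1-fold lower in the tumor line. The degree of loss and the tumor line therefore cannot be told apart here. Sp7, Dlx5, Msx1, Runx2 and Dlx3 were lower in the tumor line, against 35.0% of all genes, and Msx2, Runx1 and Atf4 were higher, against 34.6%. Sp7 was at least 111-fold lower (adjusted p = 6.38e-06) and Dlx5 39.1-fold lower (-5.29 ± 0.23, adjusted p = 2.99e-06). Msx1 was 5.10-fold lower (-2.35 ± 0.07, adjusted p = 5.19e-07), Runx2 1.77-fold (-0.82 ± 0.16, adjusted p = 0.00349) and Dlx3 changed by -0.49 ± 0.07 (adjusted p = 0.000707). Msx2 was 6.28-fold higher (2.65 ± 0.09, adjusted p = 9.49e-07). Runx1 was 1.58-fold higher by the probe used (0.66 ± 0.09, adjusted p = 0.000484) and not by its other probe. Atf4 was 1.16-fold higher (0.21 ± 0.05, adjusted p = 0.00798), a direction that turned under quantile normalization (-0.0835, adjusted p = 0.144) and in the deposited series matrix (-0.0299, adjusted p = 0.635). Dlx6 was lower by 2.49 ± 1.20 without passing (adjusted p = 0.106), and leaving out the first or the second null ASC array gave 7.68e-05 and 7.60e-05. The median member change was -0.82, against -0.05 over all genes.

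The tumor line against wild-type BM-MSC, which shares the tumor line arrays with the comparison before it, had 5 members lower, against 34.8% of all genes, and 2 higher, against 33.0%. Sp7 was at least 36.0-fold lower (adjusted p = 2.10e-05), Dlx5 29.1-fold (-4.86 ± 0.23, adjusted p = 4.27e-06), Msx1 3.33-fold (-1.73 ± 0.07, adjusted p = 1.81e-06) and Dlx3 1.36-fold (-0.44 ± 0.07, adjusted p = 0.00123). Msx2 was 1.24-fold lower (-0.31 ± 0.09, adjusted p = 0.0192), and this call was lost without the first wild-type BM-MSC array (adjusted p = 0.107) or either tumor line array (0.0543 and 0.0824). Atf4 was 1.62-fold higher (0.70 ± 0.05, adjusted p = 2.35e-05) and Runx1 1.63-fold by the probe used (0.70 ± 0.09, adjusted p = 0.000366). Runx2 differed by -0.08 ± 0.16 (adjusted p = 0.671), and only its middle probe called a difference. Dlx6 was lower by 2.44 ± 1.20 (adjusted p = 0.114), with an SE that draws on the disagreeing null ASC arrays. It passed with only the compared groups (adjusted p = 0.00098), with normexp (0.0275) and with a detection floor (0.0312). In 14 of 19 alternatives Dlx6 stayed uncalled. Smooth muscle markers moved with the tumor line, with a summed level of 17.0 to 17.1 there, 1285 to 1337 in null BM-MSC and 988 to 1155 in wild-type BM-MSC. Of the 5, 4 were well above background on both arrays in each of these groups and Des in none, and their part in the members' differences was not tested. Cartilage markers moved in both directions, with 5 of 8 well above background on both arrays in the tumor line, 5 in null BM-MSC and 4 in wild-type BM-MSC, and Sox6 in none. Acan, the cartilage proteoglycan, was 4.76 in the tumor line, against -4.96 in null BM-MSC and -5.62 in wild-type BM-MSC, each with 1 array well above background. Col2a1 was -2.40 in the tumor line, against 5.00 in null BM-MSC and 6.09 in wild-type BM-MSC. The summed cartilage level was 74.2 to 83.0 in the tumor line, 108 to 114 in null BM-MSC and 131 to 137 in wild-type BM-MSC, and its part was not tested.

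**Figure D4:**
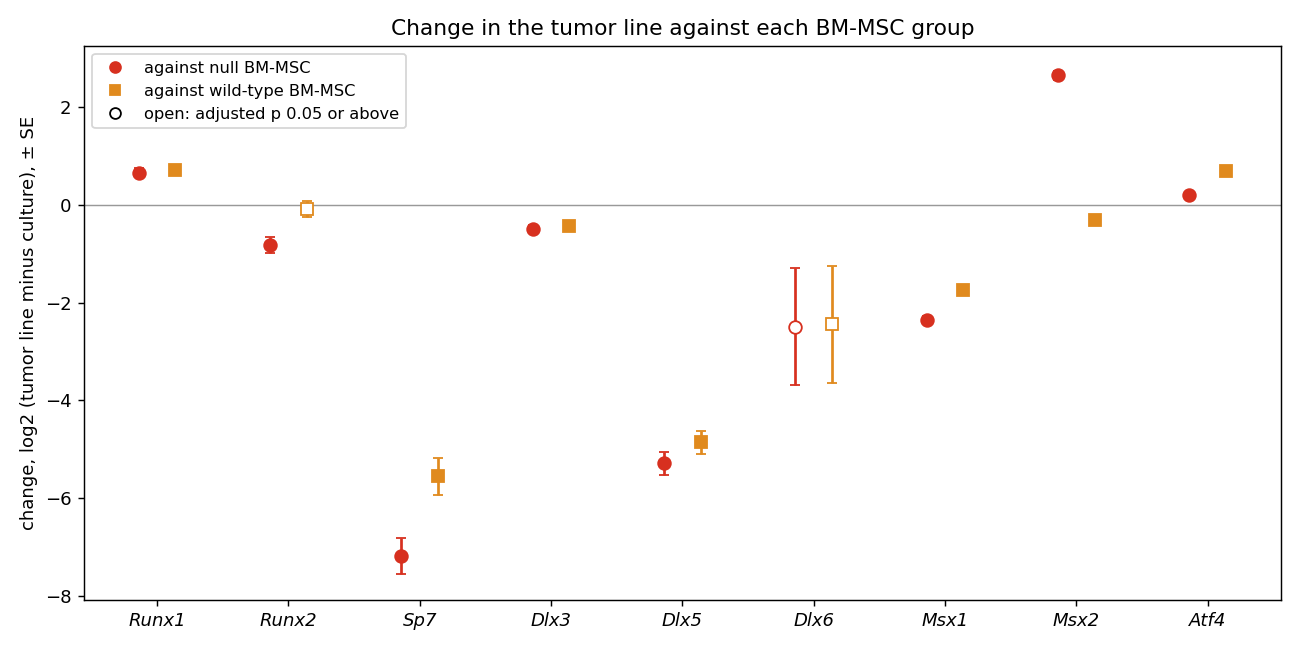
Change in the tumor line (log2, y axis, bars are ± SE from limma) of the 9 genes (x axis), as circles against null BM-MSC and squares against wild-type BM-MSC. Filled symbols passed an adjusted p of 0.05. Sp7 (-7.19 and -5.56, with tumor line signals not well above background) and Dlx5 (-5.29 and -4.86) lie lowest, and Msx2 is above 0 against null BM-MSC (2.65) and below it against wild-type BM-MSC (-0.31).

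Bone matrix and mineralization genes, some of which RUNX2 and SP7 switch on, were followed as a list of 17, of which 16 were tested. In null against wild-type BM-MSC 9 were higher and 1 lower (median 0.49, against 0.01 over all genes), where 19.3% and 20.2% of all genes were called. In null against wild-type ASC 4 were higher and 4 lower, where 20.3% and 21.2% of all genes were called. Bglap, the osteocalcin gene, was 3.49 and 3.38 in null BM-MSC against -0.27 and -0.09 in wild-type BM-MSC, 12.2-fold higher (adjusted p = 9.48e-06). Ibsp, bone sialoprotein, was 5.71 and 5.67 in null BM-MSC against 2.35 and 2.38 in wild-type BM-MSC (3.32 ± 0.50, adjusted p = 0.00271). Bglap2 and Bglap3, near copies of Bglap whose probes may share its RNA, moved with it, and both are among the 9. In BM-MSC against ASC 12 were higher and none lower in null cells (median 4.93, against -0.02 over all genes). In wild-type cells 11 were higher and none lower (median 4.25, against -0.05). The shares over all genes were 26.0% higher and 29.4% lower in null cells, and 25.7% and 28.3% in wild-type cells. In null BM-MSC Ibsp stood at least 1963-fold above null ASC, and Mmp13, a matrix-cutting protease of bone, at least 1212-fold.

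In the tumor line against null BM-MSC 10 bone matrix genes were lower and 4 higher (median -0.81, against -0.05), and against wild-type BM-MSC 9 were lower and 4 higher. Of all genes, 35.0% were lower and 34.6% higher in the first comparison, and 34.8% and 33.0% in the second. Bglap was -5.77 and -5.88 in the tumor line, not well above background, at least 499-fold lower than in null BM-MSC. Ibsp was -4.61 and -4.21 in the tumor line (-10.09 ± 0.50 against null BM-MSC, adjusted p = 5.10e-06). Spp1, Phex and Col1a1 are named for the tumor line after their values were seen. Spp1, osteopontin, averaged 7.03 in the tumor line, 3.66 in null BM-MSC and 4.21 in wild-type BM-MSC. Phex, a phosphate-regulating peptidase, was 0.53 and 0.62 in the tumor line, -0.94 and -0.95 in null BM-MSC and -2.82 and -2.62 in wild-type BM-MSC. Col1a1, the main collagen of bone and of fibroblasts, averaged 6.72 in the tumor line and 7.19 to 7.30 in the other groups.

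**Figure D5:**
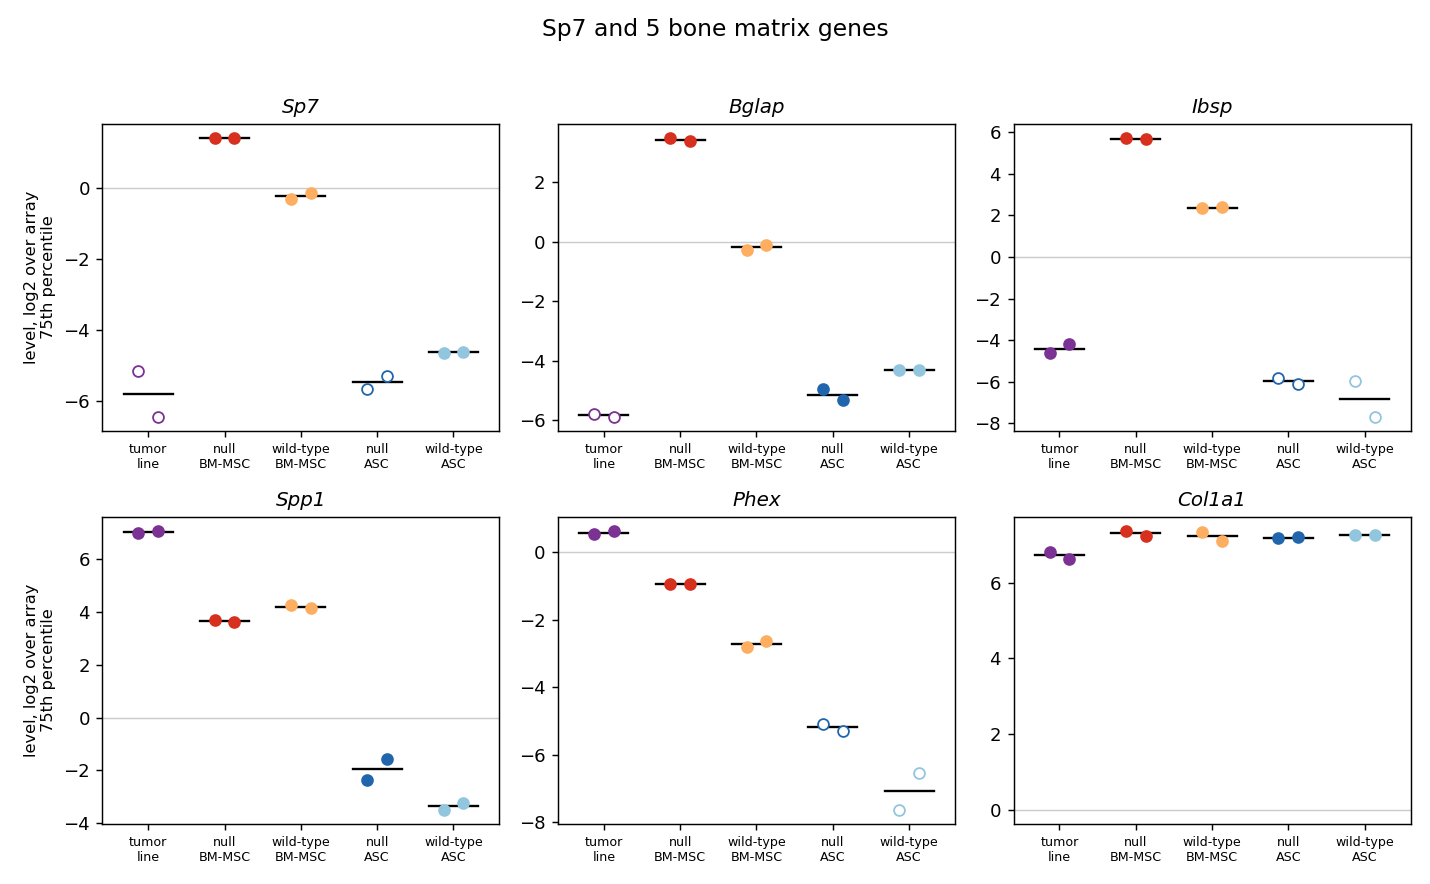
Levels (log2 over the array's 75th percentile, y axis) of Sp7 and 5 bone matrix genes in the 5 groups (x axis), with 1 point per array, lines at group means and open circles where neither array was well above background. Bglap and Ibsp are high in null BM-MSC (3.43 and 5.69) and low in the tumor line (-5.82 and -4.41), while Spp1 is highest in the tumor line (7.03).

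The RUNX partners and other bone regulators, 19 genes, were split. In null against wild-type BM-MSC 8 were higher and 6 lower, and in null against wild-type ASC 6 and 4. Of all genes, 19.3% were higher and 20.2% lower in the first comparison, and 20.3% and 21.2% in the second. Cbfb, the shared partner of RUNX proteins, was 5.95 and 5.87 in null BM-MSC against 4.95 and 4.96 in wild-type BM-MSC (0.96 ± 0.06, adjusted p = 9.39e-05). It stood highest in the tumor line, at 6.79 and 6.68 (1.78 ± 0.06 over wild-type BM-MSC, adjusted p = 1.30e-06). Cbfa2t3, a corepressor of the family that fuses with RUNX1 in leukemia, was at least 18.2-fold higher in null than in wild-type BM-MSC (adjusted p = 0.000326). Twist2, which blocks RUNX2 activity, was 2.32 and 2.35 in the tumor line against -0.93 and -1.03 in wild-type BM-MSC (3.32 ± 0.06, adjusted p = 9.66e-08). Zfp521, a modulator of RUNX2, was 0.89 and 0.79 in the tumor line against 3.23 and 3.18 in null BM-MSC (-2.36 ± 0.06, adjusted p = 2.52e-07). In the tumor line 9 of the list were higher and 6 lower against either BM-MSC group. The shares over all genes were 34.6% and 35.0% against null BM-MSC, and 33.0% and 34.8% against wild-type BM-MSC. In BM-MSC against ASC 8 were higher and 6 lower in null cells, and 8 and 8 in wild-type cells. The shares over all genes were 26.0% and 29.4% in null cells, and 25.7% and 28.3% in wild-type cells.

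The other Dlx and Msx genes, 6 tested of 7 listed, were mostly higher in bone marrow cells. In BM-MSC against ASC 5 were higher and none lower in null cells (median 2.13), and 4 higher and none lower in wild-type cells (median 4.02). The shares over all genes were 26.0% and 29.4% in null cells, and 25.7% and 28.3% in wild-type cells. Dlx2, a limb and craniofacial homeodomain gene, was 1.76 and 1.83 in null BM-MSC against -2.76 and -2.53 in null ASC (4.44 ± 0.14, adjusted p = 1.14e-06). In the tumor line 4 were lower and 1 higher against null BM-MSC (median -2.26), and 5 lower and none higher against wild-type BM-MSC (median -2.07). Of all genes, 35.0% were lower and 34.6% higher in the first comparison, and 34.8% and 33.0% in the second. Dlx1 was -4.71 and -4.31 in the tumor line against 0.84 and 0.85 in null BM-MSC (-5.36 ± 0.14, adjusted p = 3.87e-07). Dlx4 went the other way between the BM-MSC groups, at -3.53 and -3.84 in null against -1.25 and -1.35 in wild-type cultures (-2.38 ± 0.21, adjusted p = 0.0003). Dlx6os1, a long noncoding RNA read from the opposite strand across Dlx6, stood at least 4.83-fold above null ASC in null BM-MSC (adjusted p = 8.37e-05). Neither null ASC array was well above background for it. In the null against wild-type comparisons 1 was higher and 1 lower in BM-MSC, and 2 higher and 1 lower in ASC. The shares over all genes were 19.3% and 20.2% in BM-MSC, and 20.3% and 21.2% in ASC.

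Of 21 BMP pathway genes, which lie upstream of the DLX and MSX factors, 19 were tested. In null against wild-type BM-MSC 3 were higher and 5 lower, and in ASC 5 higher and 3 lower. The shares over all genes were 19.3% and 20.2% in BM-MSC, and 20.3% and 21.2% in ASC. Bmp2, a strong bone-inducing ligand, was 1.54 and 1.64 in null BM-MSC against -5.62 and -4.62 in wild-type BM-MSC (6.72 ± 0.34, adjusted p = 3.48e-05), with 1 of the wild-type arrays well above background. Grem1, a secreted BMP blocker, was 1.03 and 0.90 in null BM-MSC against 3.79 and 3.77 in wild-type BM-MSC (-2.82 ± 0.09, adjusted p = 7.31e-06). Ligands parted in the tumor line, where Bmp2 was 2.80 and 2.78 and Bmp4 was -0.09 and -0.12. Bmp4 was 6.07 and 6.12 in null BM-MSC (-6.20 ± 0.10 for the tumor line against it, adjusted p = 5.75e-08), and Smad6, an inhibitory SMAD that BMPs induce, was also lower in the tumor line (-4.76 ± 0.08, adjusted p = 7.35e-08). In all, 6 were higher and 9 lower in the tumor line against null BM-MSC, and 5 higher and 12 lower against wild-type BM-MSC. Of all genes, 34.6% were higher and 35.0% lower in the first comparison, and 33.0% and 34.8% in the second. In BM-MSC against ASC 11 were higher and 2 lower in null cells, and 11 higher and 3 lower in wild-type cells. The shares over all genes were 26.0% and 29.4% in null cells, and 25.7% and 28.3% in wild-type cells.

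The regulators of ATF4 and the amino acid response targets it activates, 25 genes, were mostly higher in null cells of both tissues. In null against wild-type BM-MSC 17 were higher and 4 lower (median 0.60, against 0.01 over all genes), and in null against wild-type ASC 18 were higher and 3 lower (median 0.55, against -0.03). The shares over all genes were 19.3% higher and 20.2% lower in BM-MSC, and 20.3% and 21.2% in ASC. Mthfd2, a mitochondrial folate enzyme, was 2.01 and 2.08 in null BM-MSC against -0.03 and 0.00 in wild-type BM-MSC (2.06 ± 0.06, adjusted p = 6.00e-06). Psat1, an enzyme of serine synthesis, was 5.38 and 5.38 in null ASC against 3.57 and 3.57 in wild-type ASC (1.81 ± 0.04, adjusted p = 2.86e-06). Against null BM-MSC 16 were higher and 4 lower in the tumor line, and against wild-type BM-MSC 19 were higher and 5 lower (median 1.63). Of all genes, 34.6% were higher and 35.0% lower in the first comparison, and 33.0% and 34.8% in the second. Phgdh, which opens serine synthesis, was 7.29 and 7.21 in the tumor line against 4.36 and 4.32 in wild-type BM-MSC (2.91 ± 0.06, adjusted p = 1.91e-07). In BM-MSC against ASC 4 were higher and 13 lower in null cells, and 4 and 16 in wild-type cells. The shares over all genes were 26.0% and 29.4% in null cells, and 25.7% and 28.3% in wild-type cells. The difference of the null effects called 9 of this list higher and 6 lower, and 6 and 3 of the bone matrix genes. It called 5 and 4 of the RUNX partners, 0 and 2 of the Dlx and Msx genes, and 4 and 6 of the BMP genes. Over all genes it called 15.3% higher and 16.6% lower.

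For members whose group means spanned at least 2, the 2 tested genes closest in pattern over the 10 arrays were found by the root mean square (RMS) difference after each gene's mean was taken off. Msx1 had the closest match, Nfatc1, a calcium-responsive transcription factor (RMS 0.067 log2), followed by Abhd12 (0.0875). Runx1 by the probe used was nearest to Supt20 (0.132) and Mettl15 (0.143), and Runx2 to Sh3pxd2b (0.181) and Maf (0.197). Msx2 was nearest to Ak4 (0.383) and Cfap100 (0.403), Dlx5 to Gprin3 (0.413) and Foxd1 (0.497), and Sp7 to Ppfibp2 (0.447) and Tnmd, a tendon membrane protein (0.597). Dlx6 had no close match, with Plin4 at 0.852 and Acss1 at 0.856. Among the members themselves the closest pair by this measure was Dlx3 and Atf4 (0.435), both of which moved little, and Sp7 and Dlx5 differed by 1.37. These values describe 10 arrays that share their groups.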

How the data were processed

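Single-colour Agilent arrays read the total RNA of 10 mouse cultures. The scanner files deposited by the authors give spot intensity from Feature Extraction, version 10.7.3.1 per the file headers. The submitters' processing notes name limma, with its role not stated. As an alternative, the deposited series matrix was used, whose values look like log2 with unstated centring. From the processed signals, control and outlier spots were removed, log2 was taken, and each level was set against its array's 75th percentile by subtraction. Dropping 37 probes that lacked a usable spot left 55644 of 55681. Names were updated through RefSeq, a gene was read by its brightest probe, and 22596 genes detected on both arrays of a group were tested.

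One limma fit (version 3.58.1, R 4.3.3; data.table, release 1.17.8) held all 5 groups and gave 7 contrasts, on 5 residual degrees of freedom plus 1.35 from the prior. P-values are two-sided and Benjamini-Hochberg adjusted over all genes, with a threshold of 0.05. The typical (median) SE was 0.0946 for a change and 0.134 for the difference of null effects. The number of arrays limits the precision, and p-values measure only the spread between duplicate cultures. Tables and figures were made in Python 3.11.15 with pandas 2.3.3, numpy 2.4.6 and matplotlib 3.10.9.

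Named genes are all members, Rb1 and Trp53, in each list up to 4 genes with the largest change among those called in a contrast, and for each member of wide range its 2 closest genes. The members, the lists (bone matrix, RUNX partners, other Dlx and Msx, BMP signalling, Atf4 regulators and targets, and markers of 7 cell types) and these rules were chosen with earlier results of these data known. The alternatives were the series matrix, normexp, quantile normalization, a detection floor, no filter, a strict filter, the mean of probes, outlier spots kept, a replicate block, the compared groups alone, and each array left out.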

Additional observations from a re-analysis of the deposited data

Results flagged for a closer look

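For 6 of the 9 genes the null effect differed between the tissues of origin by the test of the difference itself (limma, adjusted over all genes), which called 15.3% of all genes higher and 16.6% lower. The null effect in BM-MSC minus that in ASC was 2.47 (log2) for Sp7, 0.93 for Runx2, 0.73 for Msx1 and 0.47 for Dlx3. It was -2.68 for Msx2 and -0.54 for Runx1. The calls of Sp7, Runx2 and Runx1 were lost without single arrays, and those of Runx2 and Runx1 also when a gene's probes were averaged. Atf4, not called by the probe used, passed by its second probe and when its probes were averaged. The Msx1 and Dlx3 effects differed at an adjusted p under the threshold in all 20 alternatives, as did Msx2, whose difference was -2.78 to -1.71. Each group is 2 cultures, and null and wild-type cultures occupied different lines of the slide, so that position and genotype cannot be told apart. Rb1 and Trp53 RNA was also lowered less in null BM-MSC than in null ASC, so the degree of loss and the tissue cannot be told apart.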

How the results depend on the processing

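Each of the 7 counts of genes called stayed within 1.5 times its reported value in all 20 alternatives, and counts of members called did so in 137 of 140. Members called in null against wild-type BM-MSC numbered 3 to 5 when single arrays were left out, the 3 without the first wild-type or the first null BM-MSC array, and 6 with normexp and with only the compared groups. Members called in wild-type BM-MSC against wild-type ASC numbered 5 when probes had to be well above background on all 10 arrays, which left 6 members to test. Of 1239 changes of single members, 1155 kept direction and side of the threshold, 51 lost a call, 30 gained one and 3 reversed. Those were Atf4 in the tumor line against null BM-MSC with the series matrix (-0.0299) and with quantile normalization (-0.0835), and Dlx6 in null against wild-type ASC, which ran from -0.81 without the second null ASC array to 3.42 without the first. The cause was not tested. Duplicate numbers were not taken as pairs. The differences between duplicates correlated at -0.12 to 0.12 over the 10 pairs of groups. A shared effect that is small beside the array noise would give such values too, so they do not settle the pairing. With the replicate block, 8507 genes were called in null against wild-type BM-MSC, and 5 members. Dim signals limit Sp7 in the tumor line and null ASC, Dlx5 in ASC and Dlx6 in ASC to bounds.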

Other observations

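Xist and the Y-linked Ddx3y, read as a check of the cultures and not among the genes named by rule, differed between groups. Xist was -1.37 and -1.62 in the tumor line, -4.20 and -4.55 in null BM-MSC, and 2.05 and 2.20 in wild-type BM-MSC. In ASC it was 4.55 and 4.42 in null cultures and 4.67 and 4.19 in wild-type cultures. Ddx3y was well above background on no tumor line array, and averaged 1.95 in null BM-MSC against 1.65 in wild-type BM-MSC, and -1.52 in null ASC against -0.57 in wild-type ASC. The sex of the source animals was not determined here. A difference in sex between groups could not be told apart from the null, tissue and tumor line comparisons.

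Markers of other cell types were summed in units of the array's 75th percentile. Among the chondrocyte markers, Sox9 was 2.47 in the tumor line, 1.04 in null BM-MSC and 1.62 in wild-type BM-MSC, and -0.11 in null ASC against -2.68 in wild-type ASC. Comp was -2.64 in the tumor line, 2.62 in null BM-MSC and 0.95 in wild-type BM-MSC. The macrophage and myeloid list summed to 4.98 to 8.05 over all groups, with Spi1 never on both arrays. Tyrobp and Cd52 were well above background in the tumor line alone, at -1.93 and -4.22. Csf1r, Fcer1g, Adgre1 and Ptprc were lower in the tumor line than in null BM-MSC. Of this list, 8 were well above background on both arrays in the tumor line and 6 in null BM-MSC. The part of such cells was not tested. The endothelial list summed to 2.78 to 4.55, without Cdh5 and Tek, and the epithelial list to 0.814 to 0.948 in null BM-MSC and 0.122 to 0.219 over the other groups, without Epcam and Krt15. The mesenchymal stem cell list summed to 161 to 167 in the tumor line, 111 to 114 in null BM-MSC, 162 to 175 in wild-type BM-MSC, and in ASC to 111 to 115 in null and 117 to 123 in wild-type cultures.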
